A study of Mus musculus with 12 samples.

Results

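Regions of open chromatin that closed or opened in deep-layer neurons of the mouse neocortex between embryonic day 13.5 (E13.5) and E16.5 were compared. The assay was ATAC-seq: a transposase cuts and tags DNA between nucleosomes, and a peak of tagged fragments marks an accessible site such as a promoter or an enhancer. The peaks of all 12 lists of the series were merged where they overlapped or touched, which gave 498516 regions on the mm9 build. A peak covering 1 bp or more of a region made that region open in the peak's list. Closing regions had peaks in both E13.5 lists and no peak at E16.5, and opening regions were the reverse. There were 22491 closing and 10107 opening regions, 32598 or 6.54% of all regions. Of the 217534 regions open in at least 1 of the 4 lists, closing regions were 10.3% and opening regions 4.65%. These counts describe the 4 lists that the rule used. The other 8 lists helped to set the boundaries of the regions, and neither they nor the peak widths decided which regions were closing or opening. With regions merged from the 4 compared lists only there were 23579 closing and 10718 opening regions.

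All mice were CD1. Deep-layer neurons of both compared stages, and those of E18.5, came from carriers of the Golli-GFP transgene. Upper-layer neurons, used for comparison, were marked at E15.5 by in utero electroporation of a Cdk5r promoter-GFP plasmid and sorted at E17.5, on postnatal day 1 (P1) or on P5. There were 2 replicates in each of the 6 groups, made from 2 to 8 embryos per the labels, and 250000 to 500000 GFP-positive cells were sorted per sample. The labels do not say whether replicates came from separate litters, so differences between replicates may be technical. In such bulk samples a change within neurons cannot be told apart from a change in which neurons were sorted. No mm9 gene positions were used, so the labelled cell type was not checked against marker genes, and regions are given by position, counted from 1.

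Deep-layer projection neurons are among the first excitatory neurons born in the neocortex. They settle in layers V and VI, and send axons to the thalamus, brainstem and spinal cord. Golli is a set of transcripts from the Mbp gene, whose promoter is known to be active in subplate and deep-layer neurons before myelin forms. E13.5 lies within the birth of these neurons, and by E16.5 many have migrated and are extending axons. Upper-layer neurons are born later, so upper-layer neurons at E17.5 are themselves young. In maturing neurons, early enhancers are known to lose accessibility while others gain it.

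The 4 lists held 129992 and 153892 peaks at E13.5 (replicates 1 and 2) and 126828 and 99225 peaks at E16.5. Sequencing depth is unknown, as no read totals are listed, and list length is used in its place. E16.5 replicate 2 was the shortest of the 4. The median peak width was 390 and 397 bp at E13.5 and 410 and 403 bp at E16.5. With 2 lists against 2, an exact permutation test cannot give a two-sided p below 0.333, so no such test of a single region or list was made. Peak widths and peaks per window were compared by limma, which pools the spread over all regions or windows. Of the peaks of E13.5 replicate 1, 76.5% overlapped a peak of E13.5 replicate 2, while 58.3% and 48.5% overlapped E16.5 replicates 1 and 2. For E16.5 replicate 2, 77.0% of the peaks overlapped the other E16.5 list, and 64.9% and 71.0% overlapped the E13.5 lists. For E16.5 replicate 1, 59.0% overlapped the shorter E16.5 list, fewer than the 59.8% and 65.4% that overlapped the E13.5 lists. The Jaccard index divides the base pairs that 2 lists share by all those they cover, and replicates (0.520 and 0.476) exceeded all 4 pairs of different stages (0.358 to 0.402).

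Of the 93677 regions open in both E13.5 lists, 24.0% were closing, and of the 71251 regions open in both E16.5 lists, 14.2% were opening. All 4 lists were open in 53838 regions. Disagreement between replicates was more frequent than these changes, since 94789 regions were open in a single list of the 4. A further 11655 regions were open in 1 list of each stage. Just outside the rule, 17348 regions had peaks in both E13.5 lists and 1 E16.5 list. In 13696 of these the open E16.5 list was replicate 1, and in 3652 it was replicate 2.

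The excess of closing over opening regions varied with list length and with the lists used. In the full lists there were 2.23 closing regions per opening region. With each of the 4 lists reduced to the 99225 widest peaks, the length of the shortest, there were 14100 closing and 12401 opening regions. After random thinning to the same length there were 12915 and 12772, a ratio of 1.01. Closing regions thus outnumbered opening ones when the widest peaks were kept, while after thinning, a single random draw, the counts were nearly equal. Both ways left E16.5 replicate 2 whole, so a region open in all 4 lists could become opening but not closing. Without E16.5 replicate 2, when 1 list stood for E16.5, opening regions outnumbered closing ones, 35106 against 26143. Without E13.5 replicate 1 the ratio was 4.84, at 58245 closing and 12036 opening regions. Over these settings the ratio of closing to opening regions moved from 0.745 to 4.84. Lists that differ in part give regions of both kinds in any case, so their presence in each setting is no support.

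**Figure D1:**
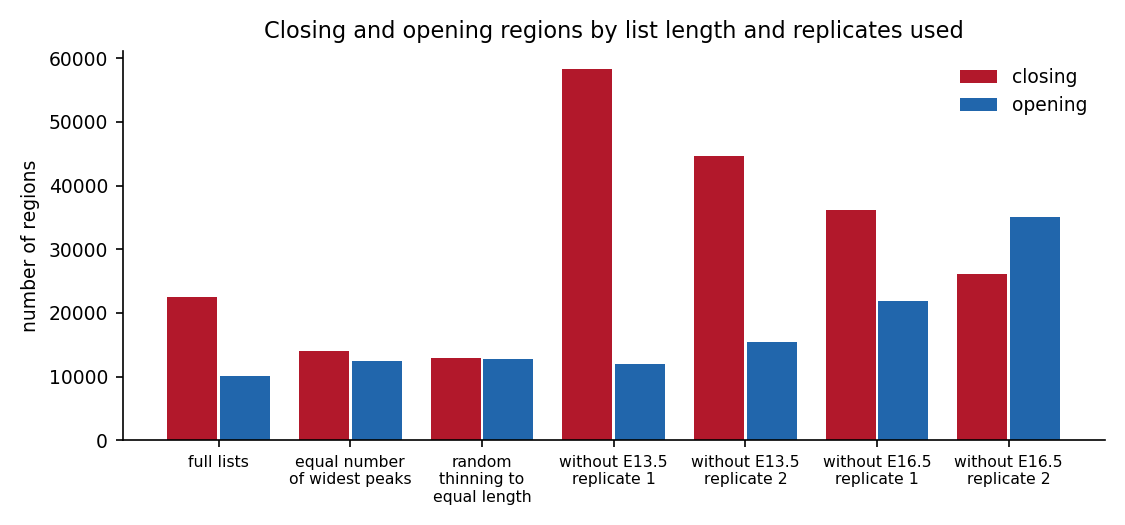
Number of closing (red) and opening (blue) regions in the full lists, with the 4 lists brought to equal length in 2 ways, and without each of the 4 lists. The bars are 22491 and 10107 in the full lists, nearly equal after thinning (12915 and 12772), and reversed in order without E16.5 replicate 2.

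Regions that opened by E16.5 were mostly open at E18.5, and regions that closed were mostly still closed. Of the opening regions, 62.2% were open in E18.5 replicate 1 and 85.4% in replicate 2 (95% Wilson intervals 61.2% to 63.1% and 84.7% to 86.1%, which cover counting error only). Of the closing regions, 6.67% and 15.4% were open in these lists. The mean was 73.8% ± 16.4 for opening and 11.1% ± 6.19 for closing regions (SD, n = 2 lists each). The difference, 55.5 points in replicate 1 and 70.0 points in replicate 2, was larger than the spread between the replicates, though 2 lists allow no p below 0.5 in an exact sign test. Regions open in 1 list of each stage, which did not change by the rule, lay between them, at 25.1% and 46.4%. Their peaks were narrower, with medians of 270 to 302 bp against 340 and 370 bp for closing and 422 and 357 bp for opening regions. They are therefore not a reference matched for width. Regions open in all 4 lists reached 83.8% and 95.1%. The 17348 regions that missed the closing rule by 1 E16.5 list were open in both E18.5 lists in 24.4% of cases, against 4.22% for closing regions. For the 7306 regions that missed the opening rule by 1 E13.5 list the share was 65.0%, against 60.7% for opening regions. A high share at E18.5 was therefore not particular to opening regions.

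Counted per region, 6135 of the opening regions (60.7%) were open in both E18.5 lists and 1321 (13.1%) in neither. Of the closing regions, 18470 (82.1%) were closed in both E18.5 lists and 950 (4.22%) were open again in both. The mean shares moved by less than their spread between lists when the other lists were reduced to the 96452 widest peaks, at 69.6% for opening and 7.67% for closing regions. They moved further when 1 E16.5 list alone defined the stage. Without E16.5 replicate 1 the shares were 43.4% for opening and 21.8% for closing regions, and without replicate 2 they were 37.4% and 15.9%.

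Closing regions of deep-layer neurons were more often open than opening regions in young upper-layer neurons. Upper-layer E17.5 replicates 1 and 2 were open in 58.9% and 49.8% of the closing regions and in 40.9% and 29.7% of the opening regions. The order was thus the opposite of that at deep-layer E18.5, with an opening minus closing difference of -18.1 and -20.2 points. Both closing and opening regions stayed below the regions open in all 4 deep-layer lists, of which 92.4% and 89.7% were open. Regions open in 1 list of each stage stood at 52.0% and 38.9%, and regions open in both E16.5 lists and 1 E13.5 list at 66.9% and 54.9%, above the closing regions. A high share at upper-layer E17.5 was therefore not particular to closing regions. These classes were not matched for peak width. Closing regions of 200 to below 300 bp stood at 45.4% and 35.1%, and those of 300 to below 400 bp at 55.6% and 46.0%. Of the closing regions, 10359 (46.1%) had a peak in each upper-layer E17.5 list and 8394 (37.3%) had none there. The peak names of the 2 upper-layer E17.5 lists carry the same library name, so they may not be independent, and each list is given on its own. With the other lists reduced to equal length the mean shares were 36.5% for closing and 22.8% for opening regions. After random thinning of the 4 compared lists they were 56.4% and 51.8%, and the mean difference went from -19.1 to -4.56 points. Thinning left E16.5 replicate 2 whole, so regions open in all 4 deep-layer lists could become opening but not closing. How far this moved the difference was not tested. The order rested on both E13.5 lists. Opening regions exceeded closing ones by 4.20 points without E13.5 replicate 1 and by 8.09 points without replicate 2, when peaks of a single E13.5 list counted as closing.

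After birth, few of either kind were open. P1 replicates 1 and 3 were open in 7.30% and 7.91% of closing regions and in 7.94% and 15.0% of opening regions. P5 replicates 1 and 2 were open in 7.83% and 8.13% of closing regions and in 13% and 18.9% of opening regions. All 4 postnatal lists had more opening than closing regions open, by 0.644 to 10.8 points. Regions open in 1 list of each stage, which did not change by the rule and had narrower peaks, stood at 13.1% and 15.0% at P1. At P5 they stood at 14.6% and 18.3%. Opening regions lay above these only in P5 replicate 2. Regions open in all 4 deep-layer lists reached 42.9% to 53.9% in the same lists. Open in none of the 4 postnatal lists were 18171 closing regions (80.8%) and 7191 opening regions (71.1%). All postnatal lists were from upper-layer neurons. Against the deep-layer lists, age, neuron type and the way of marking cells therefore cannot be told apart. Within upper-layer neurons, the E17.5 lists were open in 58.9% and 49.8% of closing regions and in 40.9% and 29.7% of opening regions. Regions open in all 4 deep-layer lists stood at 92.4% and 89.7% there, so all these shares were lower after birth.

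**Figure D2:**
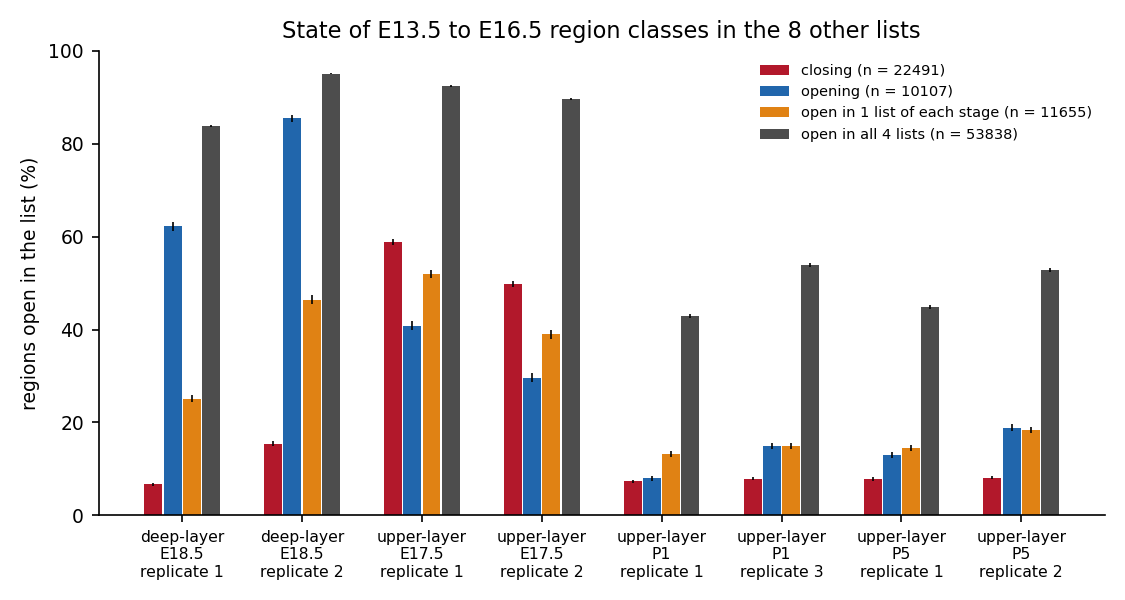
Share of regions open in each of the 8 lists that did not define the classes, for closing, opening, 1-of-each-stage and always open regions. Bars are percentages of the class, error bars are 95% Wilson intervals. Opening regions stand above closing ones in both deep-layer E18.5 lists (62.2% and 85.4% against 6.67% and 15.4%) and below them in both upper-layer E17.5 lists.

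These shares were read again by peak width, the one graded value in a list of positions. The median width of the peaks that defined a region was 357.5 bp for closing, 393 bp for opening and 580.5 bp for always open regions, so changing regions were the narrower ones. Widths of 1000 bp or more occurred in 66 closing regions (0.293%), 84 opening regions (0.831%) and 5610 always open regions (10.4%). The share of opening regions open in E18.5 replicate 1 rose with width from 35.4% at 200 to below 300 bp to 70.1% at 400 to below 500 bp and 98.8% at 1000 bp or more. In replicate 2 it went from 66.7% to 92.5% and 100%. Closing regions stayed low over the same range, from 5.56% to 10.6% in replicate 1 and from 12.7% to 31.8% in replicate 2. Always open regions of 1000 bp or more stood at 99.1% and 100%, close to the opening regions of that width.

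At upper-layer E17.5 it was the closing regions whose share rose most with width. In replicate 1 it went from 45.4% at 200 to below 300 bp to 67.3% at 400 to below 500 bp and 89.4% at 1000 bp or more, and in replicate 2 from 35.1% to 58.9% and 86.4%. Opening regions went from 36.4% to 63.1% in replicate 1 and from 25% to 40.5% in replicate 2. Closing regions lay above opening ones in each of the 6 width classes and in both lists. The last class held only 66 closing and 84 opening regions.

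**Figure D3:**
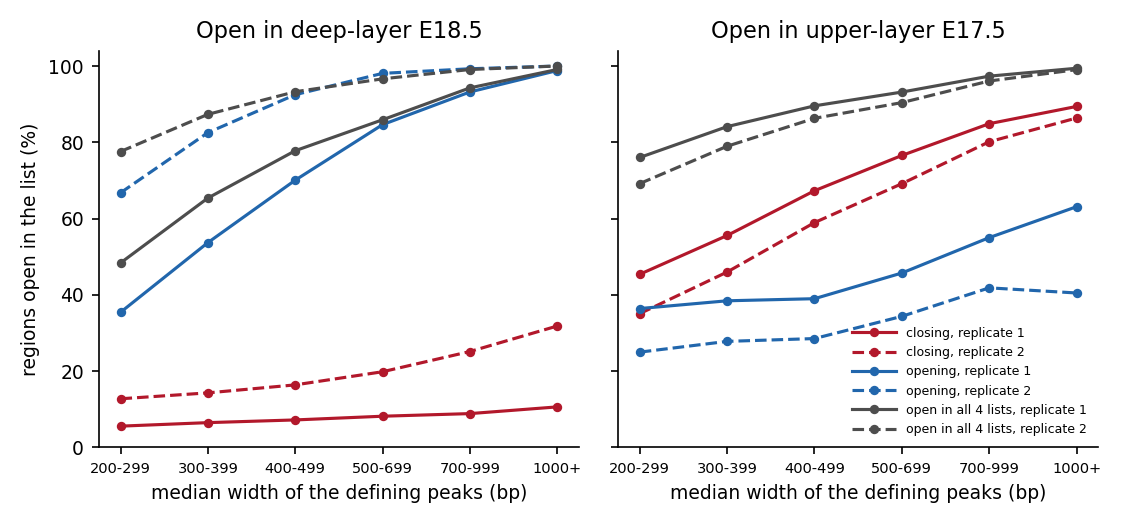
Share of regions open at deep-layer E18.5 (left) and upper-layer E17.5 (right) by the median width of the defining peaks in bp. Solid lines are replicate 1 and dashed lines replicate 2. Opening regions follow the always open ones at E18.5 and closing regions stay under 32%, while at upper-layer E17.5 closing regions rise to 89.4% and 86.4%.

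Over the E18.5 and upper-layer E17.5 lists, 3625 opening regions (35.9%) had peaks in both deep-layer E18.5 lists but none at upper-layer E17.5, and 1577 (15.6%) had peaks in all 4. Of the closing regions, 7816 (34.8%) had peaks in both upper-layer E17.5 lists but none at E18.5. Another 7550 (33.6%) were open in neither group. No other list of the series was open in 6786 closing regions (30.2%) and in 666 opening regions (6.59%). Only 753 opening regions (7.45%) were closed in all E18.5 and upper-layer E17.5 lists. Peaks of opening regions that were open in both E18.5 lists had a median width of 480 and 408 bp in the E16.5 lists and 459 and 659 bp in the E18.5 lists. Always open regions that were also open in both E18.5 lists went from 649 and 589 bp to 619 and 840 bp. In neither class did the E18.5 values lie clear of the E16.5 values.

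Closing regions that upper-layer neurons shared at E17.5 were mostly closed there by P1. Of the 10359 closing regions open in both upper-layer E17.5 lists, 82.9% were closed in both P1 lists and 82.1% in both P5 lists. For the 2780 opening regions open in both E17.5 lists these shares were 64.6% and 66.5%. For the 47678 always open regions they were 36.5% and 38.0%. The order held at each width, although the shares fell with width. Among regions with an E17.5 width from 500 to below 700 bp, 83.7% of closing, 63.1% of opening and 45.6% of always open regions were closed in both P1 lists. At 1000 bp or more the values were 69.4%, 51.7% and 18.1%. As a share of each set, the 8585 regions that closed in both populations were 38.2% of the deep-layer closing regions and 12.9% of the upper-layer ones. The upper-layer set, closing between E17.5 and P1, held 66352 regions or 13.3% of all regions. This base includes the 280982 regions open in none of the 4 deep-layer lists. Of the 53838 always open regions, 17390 were in the upper-layer closing set too, so the overlap was not particular to closing regions. Of the deep-layer opening regions, 1797 (17.8%) were also in that upper-layer closing set. Opening regions of the 2 populations shared 100 regions by P1, 0.989% of the deep-layer and 0.587% of the upper-layer set. By P5 they shared 360, which were 3.56% and 2.43%. The upper-layer opening sets were 3.42% of all regions by P1 and 2.97% by P5.

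The 10 widest closing and the 10 widest opening regions show the pattern in single regions. The widest closing region lay on chromosome 14 from 115480116 to 115481740, with peaks of 1397 and 1619 bp at E13.5. It had no peak in any other deep-layer list and peaks of 1270 and 573 bp at upper-layer E17.5. A region on chromosome 3 from 70486870 to 70488638 had peaks of 1745 and 975 bp at E13.5 and of 1733 and 1535 bp at upper-layer E17.5, and none elsewhere. A region on chromosome 11 from 33979357 to 33980870 behaved alike, with 1298 and 1375 bp at E13.5 and 1435 and 1321 bp at upper-layer E17.5. In both regions the upper-layer and the E13.5 widths overlapped.

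Among the 10 widest closing regions, only the one on chromosome 16 from 74847362 to 74848877 had no peak in any of the other 10 lists. Its peaks at E13.5 were 1208 and 1471 bp wide. In the whole class this state was common, at 6786 closing regions (30.2%). On chromosome 19 from 14500339 to 14502165, the E13.5 peaks were 1827 and 1075 bp wide. The only other peak was of 607 bp, in upper-layer E17.5 replicate 1. On chromosome 4 from 68916447 to 68917999, peaks of 1193 and 1407 bp at E13.5 were followed by none at E16.5 and by narrow ones of 303 and 341 bp at E18.5. The upper-layer E17.5 lists had peaks of 1353 and 809 bp there. The other 4 of the 10 lay on chromosome 1 from 24201346 to 24203419 and from 144501814 to 144503112, and on chromosome 10 from 63618786 to 63620366 and from 120860241 to 120861708, with E13.5 widths of 1083 to 1533 bp. Of the 10 regions, 7 had no peak at E18.5, 9 had a peak in at least 1 upper-layer E17.5 list, 8 in both, and 8 had none after birth.

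All 10 of the widest opening regions were open in both E18.5 lists. The widest lay on chromosome 18 from 59199061 to 59201122, with peaks of 1259 and 1968 bp at E16.5 and 1757 and 1457 bp at E18.5. Upper-layer neurons also had peaks there, of 1052 and 865 bp at E17.5 and 380 and 573 bp at P1. Regions on chromosome 2 from 55035967 to 55037493 and on chromosome 1 from 74294288 to 74295759 were open in no upper-layer list. The former had 1261 and 1385 bp at E16.5 and 1420 and 1468 bp at E18.5, the latter 1159 and 1343 bp and then 1398 and 1457 bp. Both were thus open in the 4 later deep-layer lists alone.

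Regions on chromosome 6 from 34719417 to 34720920 and on chromosome 13 from 82701172 to 82702990 came close to that, with 1401 and 1465 bp and 1361 and 1406 bp at E16.5. Each had 1 narrow peak in upper-layer E17.5 replicate 1, of 305 and 477 bp. Chromosome 2 held 2 more of the 10, from 113194930 to 113196748 and from 134534537 to 134536049, and chromosome 10 another from 14042285 to 14043745. These had upper-layer peaks of at most 446 bp. The last 2 lay on chromosome 18 from 30299220 to 30301431 and on chromosome 3 from 83616344 to 83617820, and were open in 6 and 7 of the 8 other lists. Of the 10, 4 were open in both upper-layer E17.5 lists and 4 in at least 1 postnatal list.

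**Figure D4:**
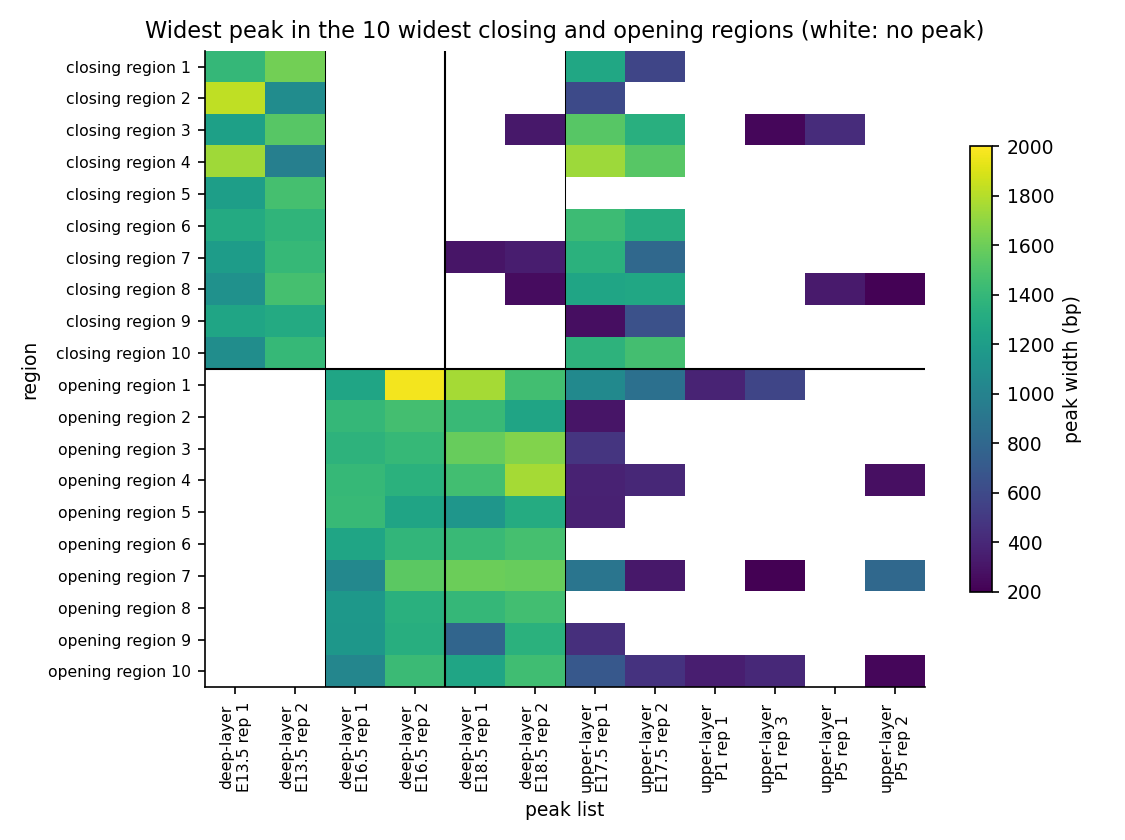
Width in bp of the widest peak of each list (columns) in the 10 widest closing and 10 widest opening regions (rows, by rank), white where a list has no peak. Of the closing regions, 9 of 10 are filled in at least 1 column of upper-layer E17.5, a separate neuron population. Opening regions stay filled through both E18.5 columns (10 of 10).

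Within the 53838 regions open in all 4 lists, width was compared by limma on the log2 of the base pairs covered per list, centred on each list's median. No region passed a Benjamini-Hochberg adjusted p of 0.05 in either direction (0% wider and 0% narrower, smallest adjusted p 0.128). At an unadjusted p under 0.05, limma gave 3802 wider and 4062 narrower regions at E16.5. Of the log2 changes, 90% lay between -0.89 and 0.81, with a median standard error of 0.27. In data simulated with the median spread for all 53838 regions, limma found 65% of changes of log2 1 and 100% of changes of log2 2. A spread that differs between regions was not simulated, so these shares do not give the power in the real lists. The absence of calls therefore does not show that large changes are absent. Without E16.5 replicate 1, whose removal leaves 1 list for that stage, limma called 122 wider and 709 narrower regions, on the assumption that this list varies like the others. With all 6 deep-layer lists in the fit it called 58 wider and 24 narrower ones of 44738 regions.

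By separation of the lists alone, 13201 regions (24.5%) were wider in both E16.5 lists than in both E13.5 lists and 11639 (21.6%) were narrower. With 2 lists against 2, order alone separates the stages, in either direction, in a share of 0.333 of regions that do not change. Separation by itself is therefore not read as change. Asking in addition for a mean change of at least 2-fold left 1520 wider regions (2.82%) and 1920 narrower ones (3.57%). The later and the upper-layer lists differed between these 2 sets in the way seen for opening and closing. Of the 1520 wider regions, 93.0% and 98.8% were open at E18.5, with median widths of 708 and 978 bp, against 294 and 349 bp at E13.5. Of the 1920 narrower regions, 48.3% and 78.4% were open at E18.5. At upper-layer E17.5 the order was reversed, with 76.8% and 66.3% of the wider and 94.9% and 91.9% of the narrower regions open. Among all 53838 regions, 83.8% and 95.1% were open at E18.5, and 92.4% and 89.7% at upper-layer E17.5. At upper-layer E17.5 the narrower regions thus lay little above this share and the wider ones well below it. The narrower regions had median widths of 975 and 878 bp there, against 737.5 and 799 bp at E13.5. Over all 53838 regions the medians were 823 and 743 bp there and 564 and 621 bp at E13.5, so widths were larger at upper-layer E17.5 in general.

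Along the genome, closing and opening regions were intermingled. Closing regions lay a median of 15.2 kb from the nearest always open region and opening regions 14.0 kb, against 14.8 kb for regions open in 1 list of each stage. Within 10 kb of an always open region were 37.4% of closing and 39.8% of opening regions. Between neighbouring changed regions 5 to 20 kb apart, the next was opening in 38.5% of cases after an opening region and in 29.1% after a closing one. At gaps of 100 kb or more the values were 33.9% and 28.9%. Like regions thus followed each other somewhat more often at both distances. This is a description of neighbouring regions, which are not independent.

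Chromosome 18 stood apart in the share of opening regions. It held 653 closing and 512 opening regions, so 43.9% of its changed regions were opening, against 31.0% over the genome and 24.4% (chromosome 11) to 34.7% (chromosome 12) on the other autosomes and X. Part of this lay in a block from 69 to 76 Mb, singled out after its values were seen, with 19 closing and 82 opening regions (81.2% opening). The rest of chromosome 18 still had 40.4%. Among 1661 windows of 1 Mb with at least 10 changed regions, 12 had 75% or more opening regions, and 6 of these were in the block.

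The block took 0.100% and 0.156% of the peaks of E13.5 replicates 1 and 2, 0.263% and 0.278% at E16.5 and 0.212% and 0.250% at E18.5. In upper-layer lists it took 0.211% to 0.324%. The rest of chromosome 18 took 3.40% and 3.33% of the E13.5 peaks, 3.90% and 3.70% at E16.5 and 3.53% and 3.70% at E18.5. The 2 E13.5 lists were the lowest of all 12 in the block, and they also differed from each other beyond counting error (intervals 0.0842% to 0.119% and 0.137% to 0.177%). Without chromosome 18 there were 21838 closing and 9595 opening regions. The mean shares were then 11.1% of closing and 74.0% of opening regions at E18.5, and 54.3% and 35.1% at upper-layer E17.5.

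**Figure D5:**
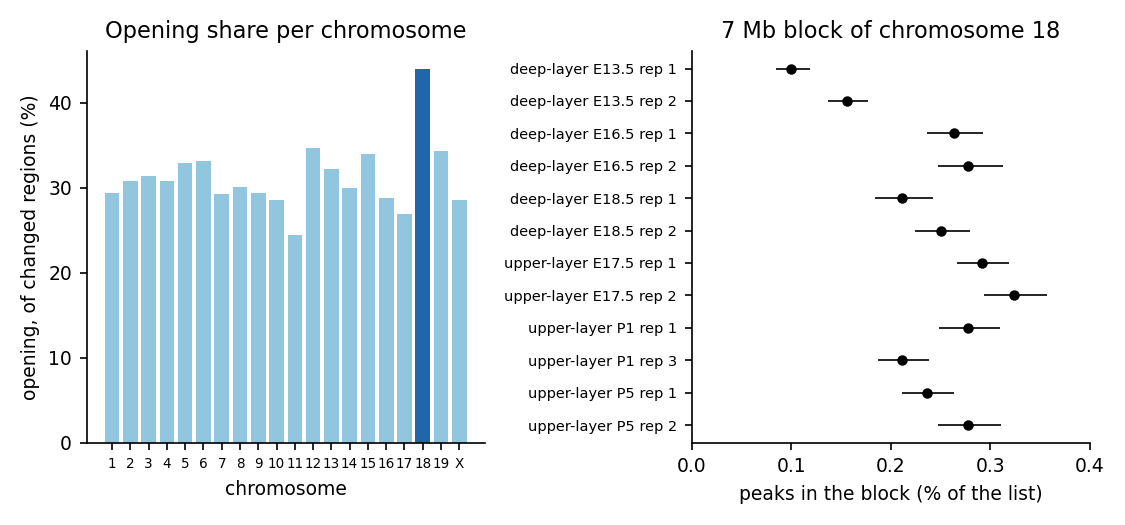
Left, opening regions as a percentage of closing and opening regions per chromosome, with chromosome 18 in dark blue at 43.9%. Right, peaks between 69 and 76 Mb of chromosome 18 as a percentage of each of the 12 lists, with 95% Wilson intervals; both E13.5 lists (0.100% and 0.156%) lie lowest.

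The number of peaks per 1 Mb window was compared by limma over 2464 windows, scaled to list length. At an adjusted p of 0.05 limma called 0 windows with more and 0 with fewer peaks (0% each, smallest adjusted p 0.286), while 84 windows had more and 105 fewer peaks at E16.5 at an unadjusted p under 0.05. In windows simulated with counting error alone, limma found 89% of changes of log2 1. Spread between replicates beyond counting error was not simulated, so this share does not give the power in the real lists. There, windows with log2 changes of 1.99 (chromosome 18, 71 to 72 Mb) and -3.14 (chromosome 2, 86 to 87 Mb) had a limma adjusted p of 0.286. The windows with the smallest p in this fit were looked at although none passed in it. Upwards, 4 of the first 5 lay in the chromosome 18 block, led by 69 to 70 Mb with 28 and 57 peaks at E13.5 and 69 and 71 at E16.5 (log2 change 1.13, SE 0.25, limma adjusted p 0.286). Downwards, a window of chromosome 10 from 125 to 126 Mb came first, with 82 and 78 peaks at E13.5 and 36 and 20 at E16.5 (log2 change -1.22, SE 0.25, limma adjusted p 0.286). It held 27 closing regions and 1 opening region. Its E18.5 lists had 17 and 31 peaks, and its upper-layer E17.5 lists 89 and 62, so the E13.5 and upper-layer E17.5 lists were again the high ones.

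The other windows among the first 5 downwards had the same form, except for one. On chromosome 9 from 34 to 35 Mb there were 73 and 102 peaks at E13.5, 46 and 34 at E16.5, 39 and 61 at E18.5 and 116 and 88 at upper-layer E17.5. This window held 26 closing and 2 opening regions. On chromosome 4 from 75 to 76 Mb there were 63 and 71 peaks at E13.5, 34 and 16 at E16.5 and 91 and 56 at upper-layer E17.5, with 19 closing and 0 opening regions. On chromosome 11 from 39 to 40 Mb there were 46 and 46, then 16 and 10, and 59 and 34 at upper-layer E17.5. The exception lay on chromosome 2 from 86 to 87 Mb, with 19 and 20 peaks at E13.5, 6 and 0 at E16.5 and 0 in both upper-layer E17.5 lists. Other settings brought calls. On all 4 lists, the replicate block gave 100 windows with more and 174 with fewer peaks, and base pairs covered in place of peaks gave 9 and 17. Without E16.5 replicate 1 limma called 5 windows with more and 22 with fewer peaks, without E16.5 replicate 2 it called 2 and 5, and without E13.5 replicate 2 it called 4 and 1. Without E13.5 replicate 1 it called 0 and 0.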

How the data were processed

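Peak lists of 12 ATAC-seq samples were used, each with chromosome, start, end and name per peak as the authors deposited them, and no score or read total. Per the submitters' processing notes, cutadapt, Bowtie2, Picard 1.14.0 and MACS2 2.1.0 were used on mm9; the sources used here do not give thresholds, any read shift or read numbers. A weak site can be closed in a list only because fewer peaks were called there. Regions, classes, shares and widths were computed with Python 3.11.15, numpy 2.4.6 and pandas 2.3.3, and limma 3.58.1 (R 4.3.3; empirical Bayes with trend, Benjamini-Hochberg) was run on log2 widths and on log2 of peaks per 1 Mb window + 0.5, in windows with a mean of at least 10 peaks. The merging of peaks and the limma fits were tested on simulated data. No mm9 genome or annotation was used, so the gene, promoter and motif results that had been planned are not analysed here.

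The members, lists and tests were chosen with earlier results of these data known. Named regions are the 10 widest per class by median peak width; width-changed regions and windows were to be named only past the threshold, and none passed, so the windows given were named after their values were seen. The settings tried are in the closing section. Equal length of the other lists, leaving out chromosome 18, and all values at upper-layer E17.5 and of opening minus closing shares under the settings were added after seeing the data.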

Additional observations from a re-analysis of the deposited data

Results flagged for a closer look

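The share of opening minus the share of closing regions that were open was positive in both deep-layer E18.5 lists (55.5 and 70.0 points, mean 62.8) and negative in both upper-layer E17.5 lists (-18.1 and -20.2 points, mean -19.1). The means differed by 81.9 points. This was singled out because every list of one group moved one way and every list of the other the opposite way. The difference between the groups was not tested. The negative sign rests on both E13.5 lists, as given with the settings below.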

How the results depend on the processing

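The lists carry no read numbers, so weak sites limit every count, and the intervals given cover counting error only. With the 4 lists at equal length by widest peaks, 14100 regions closed, and at upper-layer E17.5 64.9% of closing regions were open and opening minus closing shares were -22.9 points. After random thinning, 12915 closed and 23152 were open in all 4 lists. Of the opening regions, 51.8% were then open at upper-layer E17.5, and the difference was -4.56 points. Both ways left E16.5 replicate 2, the shortest of the 4, whole. With 0.5 of a region covered, 24190 were open in all 4. With the other lists at equal length, closing and opening shares at upper-layer E17.5 were 36.5% and 22.8%, and the difference was -13.8 points.

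Leaving out each of the 4 lists gave 26143 to 58245 closing and 12036 to 35106 opening regions, and 55767 to 67534 open in all 4. Shares at E18.5 ran from 7.63% to 21.8% for closing and from 37.4% to 75.5% for opening regions, a difference of 21.5 to 67.9 points. At upper-layer E17.5 they ran from 35.2% to 59.9% and from 20.7% to 44.2%. The difference there ran from -37.3 to 8.09 points, and was reversed without E13.5 replicate 1 (4.20) and without E13.5 replicate 2 (8.09). The cause was not tested.

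For limma on widths, leaving out a list gave 0 to 122 wider and 0 to 709 narrower regions, and all 6 deep-layer lists gave 58 and 24. For windows, leaving out a list gave 0 to 5 with more and 0 to 22 with fewer peaks, and base pairs covered gave 9 and 17. Replicate numbers were not shown to pair the lists. Deviations of same-numbered lists correlated at 0.038 for widths and 0.62 for windows, over 2 pairs. In windows same-numbered lists thus deviated together, and the main fit, with 0 calls, took no account of this. With the replicate number as a block, limma called 324 wider and 361 narrower regions, and 100 windows with more and 174 with fewer peaks. Random thinning could drop peaks of the named regions, and 10 of the 20 moved under it, and the widest closing region kept no peak. The choice of the widest regions fixed their state when a list was left out or the widest peaks were kept. Promoter and motif alternatives were not run.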
